A study of Arabidopsis thaliana with 24 samples.

Results

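The genes described here are the 10 structural genes of flavonoid and anthocyanin synthesis in Arabidopsis thaliana that were chosen by their locus identifiers, 10 of the 32548 genes in the deposited tables. They are CHS (AT5G13930), CHI (AT3G55120), F3H (AT3G51240), F3'H (AT5G07990), FLS1 (AT5G08640), DFR (AT5G42800), LDOX (AT4G22880), UF3GT (AT5G54060), UGT75C1 (AT4G14090) and 5MAT (AT3G29590). All 10 were found, and their annotated names match these roles where the RefSeq annotation gives a name. Flavonoids are plant phenolics that screen ultraviolet light and scavenge radicals, and anthocyanins are their coloured branch, which accumulates in seedlings under strong light, sugar or nutrient stress. Chalcone synthase (CHS), chalcone isomerase (CHI), flavanone hydroxylase (F3H) and flavonoid hydroxylase (F3'H) make the shared precursors, from which flavonol synthase (FLS1) makes colourless flavonols. Dihydroflavonol reductase (DFR) and leucoanthocyanidin dioxygenase (LDOX) lead to anthocyanidins. UF3GT and UGT75C1 then add sugars, and the acyltransferase 5MAT adds a malonyl group. The early genes are here CHS, CHI, F3'H and FLS1. Of these, CHS, CHI and FLS1 are known targets in Arabidopsis of the flavonol MYB factors MYB11, MYB12 and MYB111. F3'H was grouped with them by its step in the pathway, not as a target of these factors. The late genes, here DFR, LDOX, UF3GT, UGT75C1 and 5MAT, are known targets of a complex of a MYB factor such as PAP1, a bHLH factor such as TT8 and the WD40 protein TTG1.

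Gene expression was measured by RNA sequencing of total RNA from whole seedlings aged 11 days, raised on plates of MS medium under long days (16 h of light, 23 °C; 8 h of darkness, 22 °C). The series concerns COMPASS, the complexes that methylate lysine 4 of histone H3, and asks how redundantly they act. The 24 libraries came in 3 tables that were normalised separately, called sets 1 to 3, each with its own 2 libraries of the wild type Col-0, and every other genotype had 2 libraries. Set 1 held ino80(-/-), a mutant of a chromatin remodeller. Set 2 held jmj24(-/-), a mutant of a JmjC-domain gene, and atx4(-/-);atx5(-/-);jmj24(-/-), written atx4/5;jmj24. Set 3 held atx1(-/-);atx2(-/-), written atx1/2, and atx4(-/-);atx5(-/-), written atx4/5, both double mutants of ATX histone methyltransferase genes. It further held the quadruple mutants atx1(-/-);atx2(-/-);atx4(-/-);atx5(-/-), written atx1/2/4/5, and atx2(-/-);atx3(-/-);atx4(-/-);atx5(-/-), written atx2/3/4/5. The other genotypes of set 3 were jmj24(-/-);jmj26(-/-);jmj28(-/-), written jmj24/26/28, and WDR5A_RNAi(-/-), an RNA interference line against a core COMPASS subunit. Both quadruples are labelled as mutant in ATX4 and ATX5, as atx4/5 is, and all genotypes were labelled as seedlings of the same age and growth conditions. The labels do not give the allele names, the number of lines or the promoter of the interference construct.

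Values are normalised read counts, which the authors scaled to a common library size within each set and which are not divided by gene length. The spacing of low values gave an estimated depth per library, in M reads, of 18.82 to 18.96 (set 1), 24.23 to 28.71 (set 2) and 21.88 to 34.27 (set 3), so a value of 10 rests on about 10 reads. The fit of the spacing, 1 where exact, was weaker in some libraries of set 3. It was 0.693 and 0.512 in atx1/2/4/5 and 0.585 in the jmj24/26/28 library at 34.27, so those depths are rough. Group values are the mean ± SD of 2 libraries. Changes are log2 fold changes on the scale log2(value + 1), which understates the change of low genes, given ± their standard error from limma. A gene is called higher or lower where its p, adjusted by Benjamini-Hochberg over all genes tested in the set, was under 0.05. The labels do not say whether the 2 libraries of a genotype were grown separately, and the p-values then cover only the spread from library to library, possibly a technical one. An exact permutation test of 2 libraries against 2 cannot give a two-sided p below 0.333, and the calls rest on the spread that limma pools over groups and genes. In whole seedlings, fewer cells of a type and less RNA per cell cannot be told apart.

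The genes named in the genotypes check the labels. Of 21 pairs of a named gene and a genotype carrying it, 13 were called lower, 6 were not called and 2 were called higher. WDR5A was at 870 and 965 in the libraries labelled WDR5A_RNAi against 86.9 and 113 in Col-0, and ATX3 was at 740.5 and 640 in those labelled atx2/3/4/5 against 388 and 384. ATX2 was not called in any of the 3 genotypes named for it, nor was ATX5 in those labelled atx4/5;jmj24. ATX5 was at 518 and 638 there, against 434 and 476 in Col-0 but 819 and 813 in jmj24. ATX1 was not called in those labelled atx1/2, although it was at 181 and 181 there, against 258 and 257 in Col-0. It stood at 568 in replicate 1 and 191 in replicate 2 of those labelled atx1/2/4/5. These genotypes are therefore named as labelled. ATX4 was called lower in all 4 genotypes named for it.

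The seedling label was checked against 7 leaf markers, nuclear photosynthesis genes, and 8 root markers, none of which was at 0 in both libraries of any group. The summed leaf markers were lowest against Col-0 of the same set in 4 genotypes, at 80.8% of Col-0 in ino80, 83.0% in the libraries labelled atx4/5;jmj24, 68.6% in those labelled atx1/2/4/5 and 57.9% in those labelled atx2/3/4/5. The leaf markers called lower there were 6, 5, 7 and 7 of 7. The share of all genes called lower was 11.7% in ino80, 17.1% in atx1/2/4/5 and 20.1% in atx2/3/4/5. In atx4/5;jmj24 it was 1071 of 23740 genes. In set 3 the sum was 1380423 to 1450783 in the Col-0 libraries, 964725 to 977176 in atx1/2/4/5 and 800662 to 838340 in atx2/3/4/5. Smaller shortfalls, with both libraries below both of Col-0, stood in jmj24 at 95.8%, jmj24/26/28 at 93.5% and WDR5A_RNAi at 92.0%. The leaf markers called lower in these were 1, 2 and 2 of 7, beside 339 of 23740, 642 of 24843 and 1250 of 24843 genes. In atx1/2 and atx4/5 the sum was at 99.9% and 102% and 0 of 7 were called. The 4 genotypes with the lowest leaf sums were also those in which most enzyme genes were called higher, and the part of the leaf marker difference in those results was not tested. The summed root markers, which were mostly the beta-glucosidase gene PYK10, were at 150.0%, 99.5%, 126% and 118% of Col-0 in the same 4 genotypes. Called higher there were 4, 2, 0 and 1 of 8, beside 10.7%, 3.20%, 16.2% and 17.8% of all genes. In ino80 1 root marker was called lower, beside 11.7% of all genes. Of 5 seed storage and oil body markers, 3 were at 0 throughout Col-0 of set 1, 4 in set 2 and 1 in set 3. Their summed values were 8 to 23 in Col-0 of set 1 and 96 to 621 in ino80. In set 2 they were 5 to 7 in Col-0, 130 to 460 in jmj24 and 30 to 72 in atx4/5;jmj24. In set 3 they were 266 to 472 in Col-0, 1200 to 2850 in atx1/2/4/5, 1188 to 1408 in atx2/3/4/5 and 2302 to 2825 in jmj24/26/28. They were 210 to 734 in atx4/5 and 343 to 752 in WDR5A_RNAi. In atx1/2 they were 26 to 195, below both Col-0 libraries. Seed markers called higher were 3 of 4 tested in ino80, 3 of 5 in jmj24 and 0 of 5 in atx4/5;jmj24. The shares of all genes called higher there were 10.7%, 1.39% and 3.20%. In atx1/2/4/5, atx2/3/4/5 and jmj24/26/28 they were 2, 2 and 1 of 5, beside 4025, 4433 and 314 of 24843 genes. In atx1/2, atx4/5 and WDR5A_RNAi 0 of 5 were called in either direction, beside 70, 804 and 2374 of 24843 genes. The part of these markers in the enzyme results was not tested.

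The 250 bases before the annotated start of each gene are shown for 4 members, CHS as the first step, DFR and LDOX as the entry to anthocyanins and UF3GT as a late decoration step. The capitals mark CACGTG, the G-box bound by bHLH and bZIP factors, and ACCNAAC or its reverse complement GTTNGGT, a MYB-binding element. Sequences are from RefSeq, build TAIR10.1, 5′ to 3′ on the strand of the gene.
CHS, chr5:4488226-4488475, plus strand: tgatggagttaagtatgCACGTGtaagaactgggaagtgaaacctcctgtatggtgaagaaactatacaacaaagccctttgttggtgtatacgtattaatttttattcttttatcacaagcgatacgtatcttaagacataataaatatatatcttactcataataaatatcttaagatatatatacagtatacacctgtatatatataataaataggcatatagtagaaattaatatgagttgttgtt
DFR, chr5:17166033-17166282, minus strand: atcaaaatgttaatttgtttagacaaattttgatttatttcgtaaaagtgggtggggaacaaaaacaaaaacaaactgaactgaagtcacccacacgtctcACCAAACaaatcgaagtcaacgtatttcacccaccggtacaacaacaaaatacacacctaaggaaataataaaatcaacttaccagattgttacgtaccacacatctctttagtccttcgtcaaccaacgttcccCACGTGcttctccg
LDOX, chr4:12006210-12006459, minus strand: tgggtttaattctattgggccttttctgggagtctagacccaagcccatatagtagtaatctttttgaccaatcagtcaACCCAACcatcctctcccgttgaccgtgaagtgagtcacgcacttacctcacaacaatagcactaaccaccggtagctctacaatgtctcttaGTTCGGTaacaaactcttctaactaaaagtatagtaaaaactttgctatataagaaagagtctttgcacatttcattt
UF3GT, chr5:21938397-21938646, minus strand: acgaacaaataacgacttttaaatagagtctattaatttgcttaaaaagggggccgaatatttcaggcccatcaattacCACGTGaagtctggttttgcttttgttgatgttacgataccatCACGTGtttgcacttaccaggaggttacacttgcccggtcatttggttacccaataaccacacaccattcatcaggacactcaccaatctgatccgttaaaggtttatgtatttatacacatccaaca

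Searched on both strands, CACGTG occurred in the windows of 4 of the 10 members, CHS, F3H, DFR and UF3GT, and in 6.49% of 27443 protein-coding genes' windows of the same length. In CHS it lay 233 bases before the start and in DFR 14, and UF3GT held it at 171 and 128. ACCNAAC occurred in 5 of the 10, F3'H, FLS1, DFR, LDOX and 5MAT, and in 14.5% of all windows. The LDOX window held it at 171 and 78 bases before the start. CANNTG, the general E-box, which includes every CACGTG, occurred in 7 of the 10 and in 55.3% of all windows, and ACCTACC in 0 of the 10 and in 1.16%. DFR was the 1 member holding both CACGTG and ACCNAAC in its window. A match is a description of these letters and says nothing of binding.

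F3H could not be followed in these tables. It was listed at 0 in 18 of 24 libraries and reached at most 9.35. In set 1 it was at 9.35 and 5.13 in Col-0 and at 7.70 and 7.79 in ino80, and its change was not called (log2 fold change 0.13 ± 0.46, limma, adjusted p = 0.861). It did not pass the filter on low values in sets 2 and 3, where 9 members were tested. F3H lies at chr3:19025192-19026872 on the plus strand, and 1415 of its 1508 exon bases (93.8%) are covered by an annotated long noncoding RNA on the other strand, AT3G51238 at chr3:19025110-19026779. That RNA was itself at 0 in 23 of 24 libraries. Across the tables, 493 of 508 protein-coding genes (97.0%) with at least 90% of their exon bases covered on the other strand stayed under 10 in every library. The share was 52.3% of genes covered by 50 to 90%, 9.25% of those covered by less than 50% and 23.9% of those not covered. UGT89C1, a flavonol rhamnosyltransferase covered over 99.6% of its exon bases, was at 0 in every library. The counting tool and its strand setting are not given in the sources used here, so the level of F3H in the plants cannot be read from its values. The part of the covering RNA in the low values of F3H was not tested. Of the other members, UGT75C1 is covered over 27.1% of its exon bases and CHS over 2 bases, and without the strand setting reads from the covered part cannot be assigned with certainty.

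**Figure D1:**
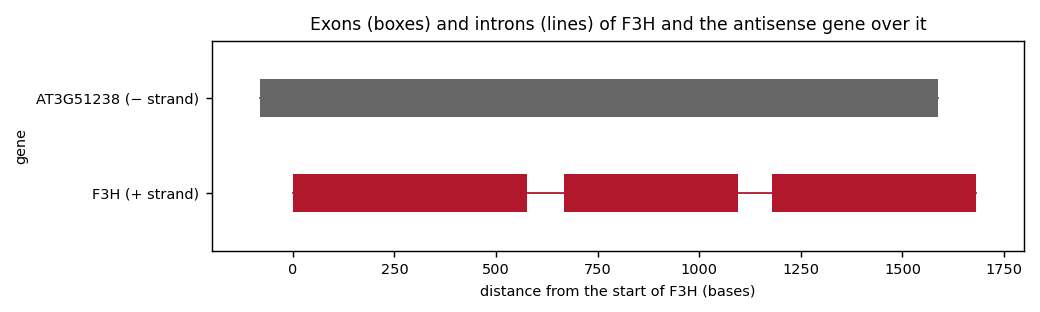
Exons (boxes) and introns (lines) of F3H and of the noncoding RNA on the other strand, against the distance in bases from the start of F3H. The noncoding RNA spans from 82 bases before the start of F3H to 1587 bases after it, and F3H ends at 1680.

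In Col-0 the enzyme genes spanned a wide range of levels. Per kilobase of exon, CHS had the highest normalised read count of the 10 in every set, at 2162 ± 413 in set 1, 3507 ± 347 in set 2 and 2928 ± 40.6 in set 3. Next in set 3 came CHI at 552 ± 29.7, DFR at 548 ± 140.0, FLS1 at 478 ± 45.8 and LDOX at 452 ± 100.02, neighbours that did not differ beyond their spread. F3'H at 129 ± 2.45, UGT75C1 at 107 ± 25.3, UF3GT at 89.96 ± 10.8 and 5MAT at 68.4 ± 11.2 were the lowest of those measured. Wild-type seedlings of the 3 sets differed in the balance of late and early genes. The summed normalised counts of the 5 late genes per 100 of the 4 early genes were 21.2 and 21.2 in the Col-0 libraries of set 1, 5.76 and 5.37 in those of set 2 and 24.1 and 33.6 in those of set 3. The sets were normalised separately and read type may differ between them, so no level was tested between sets.

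The early genes rose in the libraries of both quadruples. CHS, the committed step of the pathway, was at 4937 and 5035 in Col-0 of set 3, at 8144 and 11831 in the libraries labelled atx1/2/4/5 and at 11282 and 11733 in those labelled atx2/3/4/5. It was at 6526 and 6618 in atx1/2, 5060.05 and 5533 in atx4/5, 5440 and 6313 in jmj24/26/28 and 7003 and 7302 in WDR5A_RNAi. All 4 quadruple libraries thus lay above the other 10, although the 2 labelled atx1/2/4/5 stood far apart. The change from Col-0 was 0.98 ± 0.14 in atx1/2/4/5 (limma, adjusted p = 0.000503) and 1.21 ± 0.14 in atx2/3/4/5 (adjusted p = 9.62e-05). CHI, which closes the flavanone ring, was at 637 and 591 in Col-0, 917 and 1018 in the libraries labelled atx1/2/4/5 and 1178 and 1148 in those labelled atx2/3/4/5. Its range over the other 8 libraries was 568 to 741, so the quadruples did not overlap with them. FLS1 was at 826 and 721 in Col-0, 1156 and 1237 in atx1/2/4/5 and 1603 and 1797 in atx2/3/4/5. These groups stepped up without overlap, and the changes were 0.63 ± 0.08 (limma, adjusted p = 2.27e-05) and 1.14 ± 0.08 (adjusted p = 4.06e-08). F3'H, which sets the quercetin and cyanidin hydroxylation pattern, was at 246 and 253 in Col-0, 270.1 and 443 in atx1/2/4/5 and 430 and 499 in atx2/3/4/5. The lower atx1/2/4/5 library lay just above Col-0 and below both WDR5A_RNAi libraries at 279 and 279. F3'H was called in atx1/2/4/5 by a narrow margin (0.47, limma, adjusted p = 0.0424) and in atx2/3/4/5 (0.89, adjusted p = 0.000614). Its atx1/2/4/5 call held in 5 of 10 alternatives that kept all libraries, and leaving out 1 library the change ran from 0.11 to 0.82.

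Of the 5 late genes, 5 rose in atx2/3/4/5 and 3 in atx1/2/4/5. Folds between group means in atx2/3/4/5 were 2.01 to 3.33, beside 1.86 to 2.31 for the early genes, a difference that was not tested. DFR, the first step specific to anthocyanins and proanthocyanidins, was at 683 and 984 in Col-0, 1211 and 2422 in the libraries labelled atx1/2/4/5 and 2560.2 and 2657 in those labelled atx2/3/4/5. It was at 1097 and 1271 in atx1/2, 709 and 921 in atx4/5, 744 and 1149 in jmj24/26/28 and 1432 and 1515 in WDR5A_RNAi. Replicate 1 of atx1/2/4/5 was therefore below both WDR5A_RNAi libraries and within the range of atx1/2, while replicate 2 was close to atx2/3/4/5. DFR was called in atx2/3/4/5 (1.67 ± 0.36, limma, adjusted p = 0.00779) and was not in atx1/2/4/5 (1.06 ± 0.36, adjusted p = 0.0561). LDOX, which makes the coloured anthocyanidins, was at 533 and 731 in Col-0, 909 and 1553 in atx1/2/4/5 and 1301 and 1239 in atx2/3/4/5. It was called in both quadruples by a narrow margin in atx1/2/4/5 (0.93 ± 0.30, limma, adjusted p = 0.0492; atx2/3/4/5 1.02 ± 0.30, adjusted p = 0.0303). The sugar transferase UF3GT was at 136 and 161 in Col-0, 275 and 521 in atx1/2/4/5 and 519 and 464 in atx2/3/4/5. UGT75C1, which glucosylates the anthocyanin core, was at 146 and 205 in Col-0, 339 and 622 in atx1/2/4/5 and 535 and 529 in atx2/3/4/5. For both genes all 4 quadruple libraries lay above the other 10. The acyltransferase 5MAT was at 105 and 133 in Col-0, 138 and 335 in atx1/2/4/5 and 418 and 376 in atx2/3/4/5. Replicate 1 of atx1/2/4/5 lay below the higher WDR5A_RNAi library at 153, and 5MAT was called in atx2/3/4/5 (1.74 ± 0.32, limma, adjusted p = 0.00119) and was not in atx1/2/4/5 (0.86 ± 0.32, adjusted p = 0.060).

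**Figure D2:**
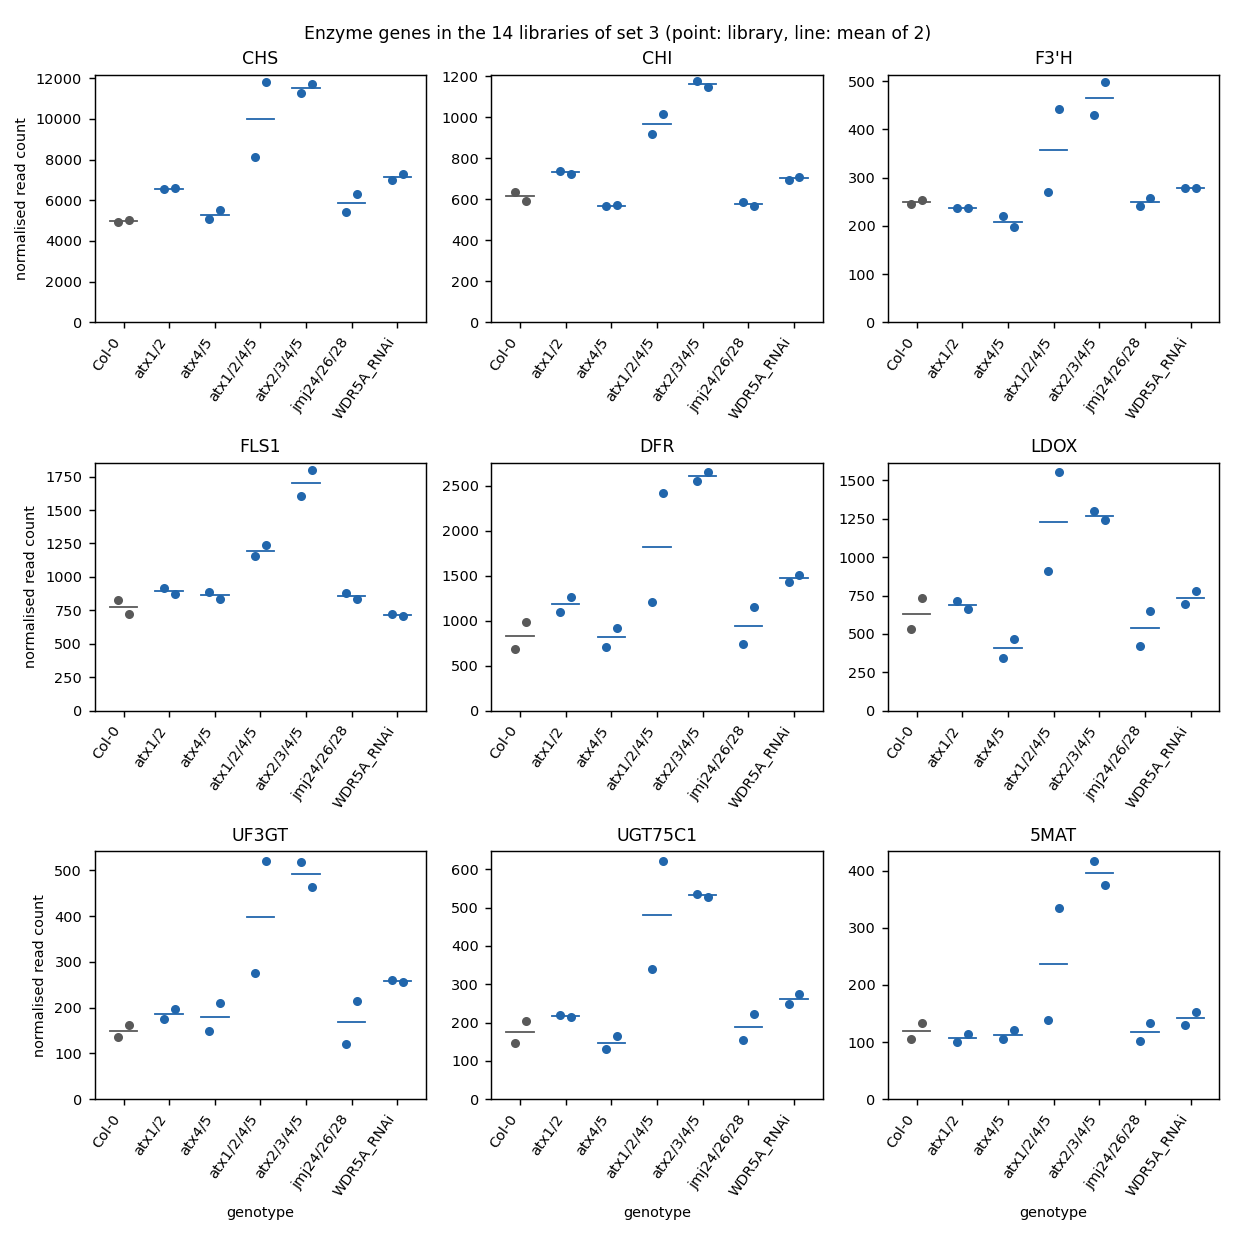
Normalised read count (vertical axis, linear from 0) of 9 enzyme genes in the 14 libraries of set 3 by genotype, each point 1 library and each line the mean of 2. For CHS, CHI, FLS1, LDOX, UF3GT and UGT75C1 all 4 libraries of the quadruples lie above the other 10, and the atx1/2/4/5 libraries stand apart from each other most in the late genes.

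In counts, 9 of 9 tested members were called higher in atx2/3/4/5 against Col-0, where 17.8% of all 24843 genes tested were called higher, and 7 of 9 in atx1/2/4/5, where 16.2% were. No member was called lower in either. In all 9 both libraries of each quadruple lay above both of Col-0, where 34.5% of all genes tested did so in atx2/3/4/5 and 31.6% in atx1/2/4/5. The median change of the members was 1.21 in atx2/3/4/5 and 0.93 in atx1/2/4/5, beside 0 over all genes tested in both. With column totals set equal, the median of all genes moved up by 0.168 and 0.128 and the split of calls over all genes moved from 4433 higher and 5000 lower to 7967 and 3272 in atx2/3/4/5, and from 4025 and 4248 to 6501 and 2885 in atx1/2/4/5. The 9 members kept their direction in every alternative run in both. Leaving out each library in turn, 7 of the 9 calls held throughout in atx2/3/4/5, DFR and LDOX not, and 4 of the 7 in atx1/2/4/5, those of CHS, CHI, FLS1 and UGT75C1. Without Col-0 replicate 1, 4 members were called in atx1/2/4/5.

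The 2 libraries labelled atx1/2/4/5 differed more in the late genes than those of any other genotype of set 3. Replicate 2 was 1.71 to 2.42 times replicate 1 over the 5 late genes, with a median of 1.90, and 1.07 to 1.64 times over the 4 early genes. In Col-0 of set 3 the higher library was 1.19 to 1.44 times the lower over the late genes. In jmj24/26/28 it was 1.3 to 1.76 times and in atx2/3/4/5 1.01 to 1.12 times. Replicate 2 was also the higher library for every late gene in Col-0, atx4/5 and jmj24/26/28. In atx1/2, atx2/3/4/5 and WDR5A_RNAi the order of the libraries varied by gene. ATX1 also differed between the 2 atx1/2/4/5 libraries, as given above, in the opposite direction. Its part in the enzyme genes' spread was not tested.

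Against the double mutants the quadruples were higher too. In atx1/2/4/5, 7 of 9 members were called higher than in atx1/2 (15.1% of all genes tested) and 8 of 9 than in atx4/5 (16.4%), and DFR was called in neither. In atx2/3/4/5, 9 of 9 were called higher than in atx4/5 (17.5%), with changes from 0.97 ± 0.08 for FLS1 to 1.85 ± 0.27 for UGT75C1. With column totals set equal the split of calls over all genes moved from 3750 higher and 3944 lower to 6074 and 2716 against atx1/2, from 4074 and 4235 to 6670 and 2590 for atx1/2/4/5 against atx4/5, and from 4340 and 4739 to 7931 and 2848 for atx2/3/4/5 against atx4/5, and the median of all genes moved up by 0.118, 0.147 and 0.190. The members kept their direction. Calls that held in every omission of 1 library numbered 2 of 7, 5 of 8 and 8 of 9. Without either atx1/2 library 2 members were called against atx1/2, and without replicate 2 of atx1/2/4/5 there were 3 against atx1/2 and 5 against atx4/5. Between the quadruples, CHI and FLS1 were called lower in atx1/2/4/5 than in atx2/3/4/5, 2 of 9 members where 6.76% of all genes were. The split over all genes there was 2195 higher and 1679 lower, and 1716 and 2123 with column totals set equal. The difference was -0.27 ± 0.07 for CHI (limma, adjusted p = 0.0214) and -0.50 ± 0.08 for FLS1 (adjusted p = 0.000604). Here the FLS1 call held in each omission of 1 library, and the count was 5 without replicate 2 of atx1/2/4/5 and 1 without replicate 1 of it or either atx2/3/4/5 library. For the late genes the replicates of atx1/2/4/5 left wide intervals, as for DFR at -0.61 ± 0.36 (adjusted p = 0.332) and LDOX at -0.10 ± 0.30 (adjusted p = 0.893).

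The other genotypes of set 3 showed few calls. In atx1/2, 0 of 9 members were called by limma, 3 had an unadjusted p under 0.05, and 0.282% of all genes were called. CHS had the highest change of the early genes there (0.40 ± 0.14, limma, adjusted p = 0.572), with both libraries above Col-0, as in 6 of the 9 members (18.5% of all genes). In atx4/5, 0 of 9 were called, 0 had an unadjusted p under 0.05, and 3.24% of all genes were called. LDOX there was at 344 and 469, both below the Col-0 libraries, with a change of -0.64 ± 0.30 (limma, adjusted p = 0.379). In jmj24/26/28, 0 of 9 were called, 0 had an unadjusted p under 0.05, and 3.85% of all genes were called. In the libraries labelled WDR5A_RNAi, CHS was called higher (0.52 ± 0.14, limma, adjusted p = 0.0488), 1 of 9 members where 4.52% of all genes were called higher. That call was lost in each omission of 1 library. DFR in WDR5A_RNAi lay above both Col-0 libraries (0.84 ± 0.36, limma, adjusted p = 0.194), as did UF3GT at 261 and 256 (0.80 ± 0.32, adjusted p = 0.155). Both libraries lay above both of Col-0 in 6 of the 9 (26.7% of all genes). FLS1 was the member with a negative change there, at 722 and 706.

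**Figure D3:**
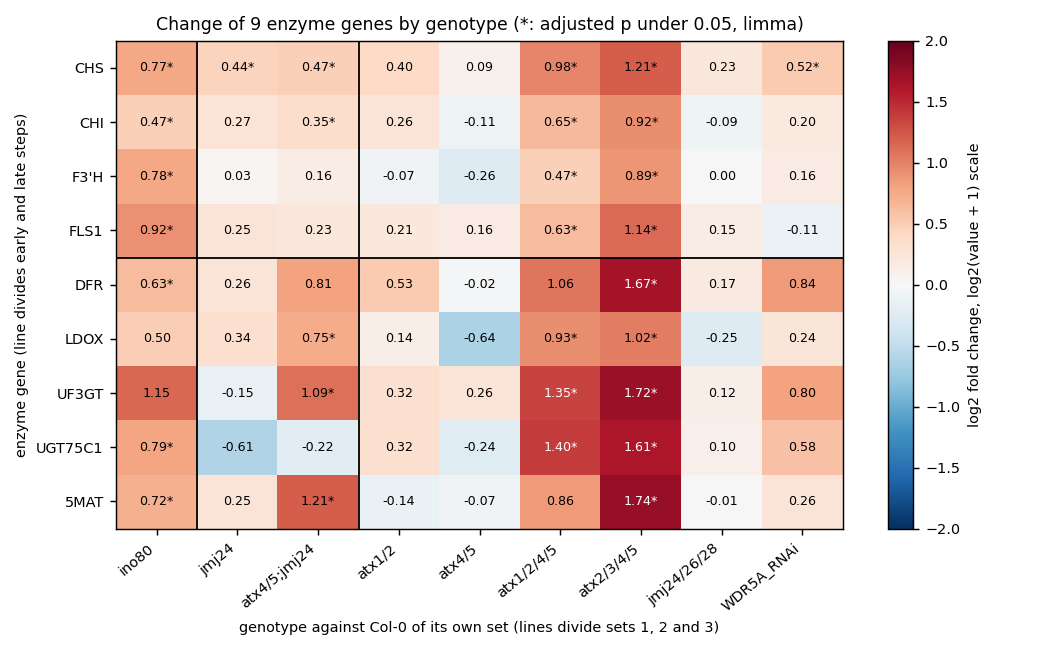
Log2 fold change of 9 enzyme genes (rows) in each genotype against Col-0 of its own set (columns), with the value printed and an asterisk where the limma adjusted p was under 0.05. The atx2/3/4/5 column carries 9 asterisks and the atx1/2/4/5 column 7, while atx1/2, atx4/5 and jmj24/26/28 carry 0. Columns within a set share their Col-0 libraries.

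In set 2, CHS rose in both mutants, and several late genes rose in atx4/5;jmj24. CHS was at 5555 and 6391 in Col-0, 8038 and 8139.6 in jmj24 and 8152 and 8411 in the libraries labelled atx4/5;jmj24. Both mutants lay above Col-0, and atx4/5;jmj24 lay just above jmj24. The change was 0.44 ± 0.06 in jmj24 (limma, adjusted p = 0.0035) and 0.47 ± 0.06 in atx4/5;jmj24 (adjusted p = 0.000876). UF3GT was at 36.8 and 47.4 in Col-0, 42.5 and 33.1 in jmj24 and 84.3 and 96.6 in atx4/5;jmj24, and 5MAT was at 26.9 and 33.3, at 41.5 and 31.0 and at 71.2 and 70.2. Both genes overlapped between jmj24 and Col-0 and lay above both in atx4/5;jmj24, with changes from Col-0 of 1.09 ± 0.26 (limma, adjusted p = 0.0253) and 1.21 ± 0.28 (adjusted p = 0.0211). LDOX was at 105 and 99.8 in Col-0, 111 and 151 in jmj24 and 148 and 200.4 in atx4/5;jmj24. DFR, at 175 and 201 in Col-0 and 285 and 377 in atx4/5;jmj24, was not called (0.81 ± 0.21, limma, adjusted p = 0.0608). UGT75C1 went the other way, at 117 and 103 in Col-0, 71.9 and 71.3 in jmj24 and 78.2 and 112 in atx4/5;jmj24, and was called in neither.

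In jmj24, 1 of 9 members was called higher, where 1.39% of all 23740 genes tested were, and in atx4/5;jmj24 5 of 9 were (CHS, CHI, LDOX, UF3GT and 5MAT), where 3.20% were. In 7 of the 9 both atx4/5;jmj24 libraries lay above both of Col-0, beside 25.0% of all genes. With column totals set equal the split over all genes in atx4/5;jmj24 moved from 760 higher and 1071 lower to 1036 and 928. Of these calls only that of CHS in atx4/5;jmj24 held in each omission of 1 library. The count ran from 0 to 2 in jmj24, with 2 without Col-0 replicate 4 and 0 without either jmj24 library, and from 1 to 4 in atx4/5;jmj24, with 1 without Col-0 replicate 3, 3 and 2 without its own replicates 1 and 2. Both counts were 0 without the filter on low values and without the mean-variance trend. Directly against jmj24, 0 of 9 members were called in atx4/5;jmj24 by limma, 3 had an unadjusted p under 0.05, and 0.746% of all genes were called. UF3GT came nearest (1.24 ± 0.26, limma, adjusted p = 0.0583), so the difference between the 2 mutants in the late genes did not pass the test. Late counts per 100 early were 4.06 and 5.10 in jmj24 and 5.98 and 7.51 in atx4/5;jmj24.

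**Figure D4:**
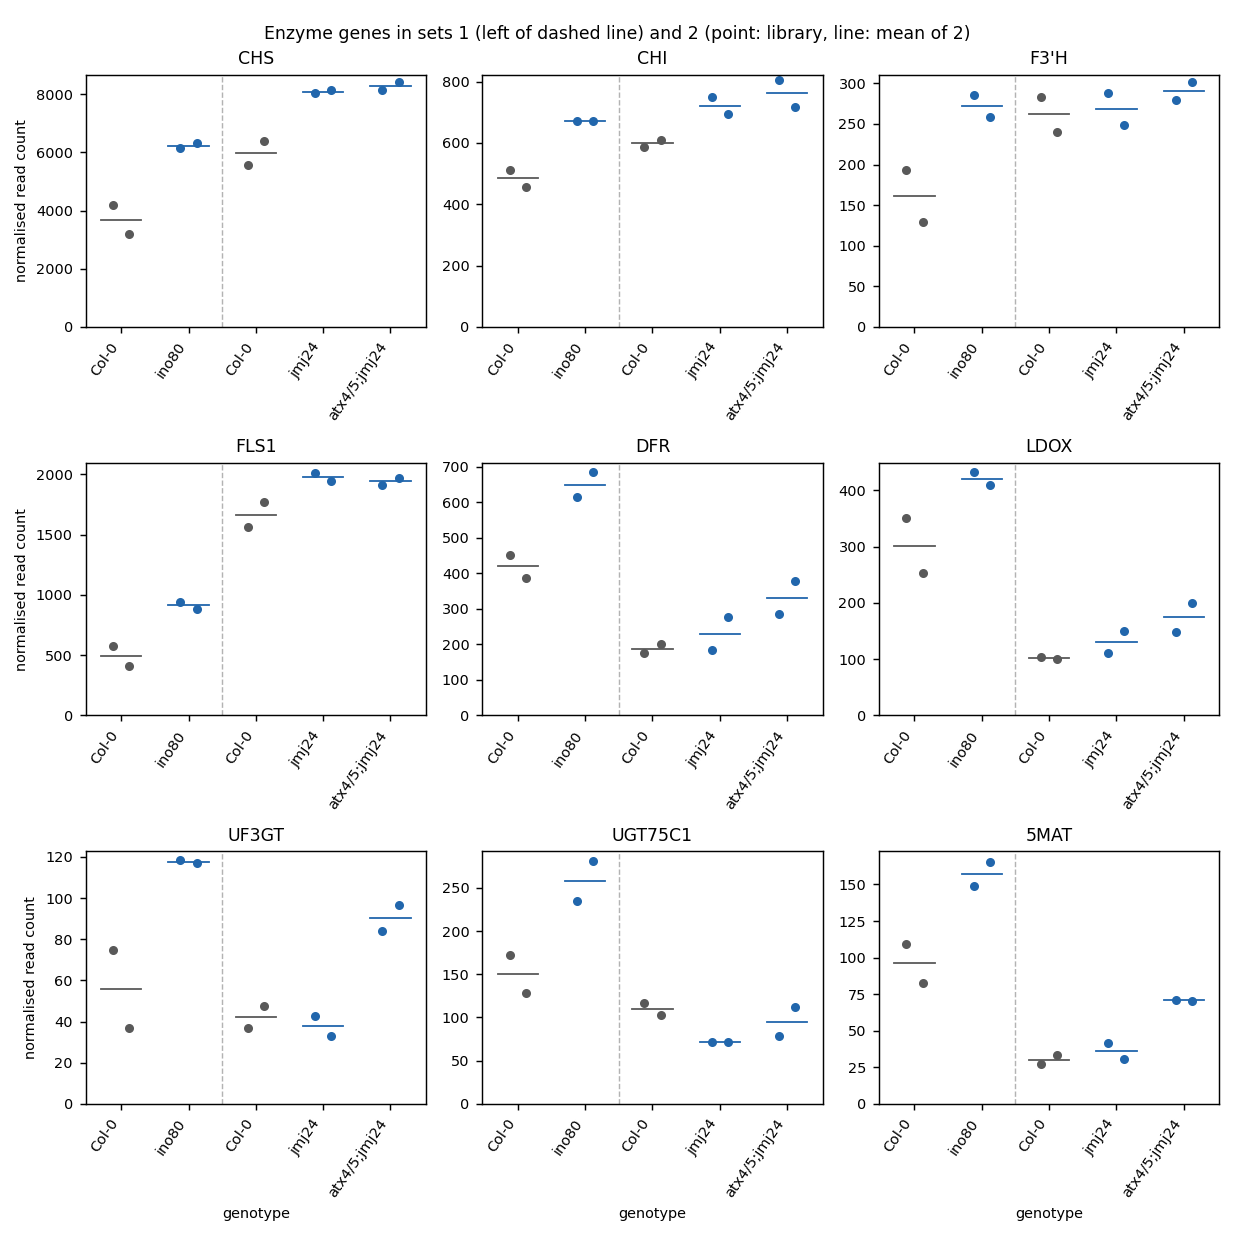
Normalised read count (vertical axis, linear from 0) of 9 enzyme genes in set 1, left of the dashed line, and set 2, right of it, each point 1 library and each line the mean of 2. Both ino80 libraries lie above both Col-0 libraries of set 1 in all 9 panels, and UF3GT and 5MAT are higher in atx4/5;jmj24 than in jmj24 and Col-0 of set 2. The sets were normalised separately, so heights across the dashed line are not comparable.

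In set 1, all 9 members other than F3H were higher in both ino80 libraries than in both Col-0 libraries, where 30.8% of all 22934 genes tested were. CHS was at 4180 and 3186 in Col-0 and 6147 and 6307 in ino80. FLS1 was at 572 and 409 in Col-0 and 944 and 885 in ino80, and DFR was at 452 and 388 in Col-0 and 614 and 685 in ino80. The ino80 libraries were close to each other, and Col-0 replicate 5 exceeded replicate 6 in every one of the 9 genes, by 1.12 to 2.02 times. The called members were 7 of 10 tested (CHS, CHI, F3'H, FLS1, DFR, UGT75C1 and 5MAT), where 10.7% of all genes were called higher, and 0 were called lower. The changes ran from 0.47 ± 0.08 for CHI (limma, adjusted p = 0.00304) to 0.92 ± 0.17 for FLS1 (adjusted p = 0.0228) among those called. UF3GT had the highest change of all, 1.15 ± 0.32, and was not called (adjusted p = 0.0531), since its Col-0 libraries stood at 74.8 and 36.9. LDOX was not called either (0.50 ± 0.15, adjusted p = 0.0576). The members' median change was 0.74 beside 0.001 over all genes tested. The median change was 0.77 for the 4 early and 0.72 for the 5 late genes. The late counts per 100 early were 21.2 and 21.2 in Col-0 and lower in both ino80 libraries, at 19.2 and 20.4, and the difference between early and late genes was not tested. The calls of ino80 depended on the fit. The count was 0 without the mean-variance trend, without the filter on low values and without either ino80 library, 4 without Col-0 replicate 6 and 9 without Col-0 replicate 5, and the direction of the 9 members was the same in each. With column totals set equal, the split over all genes moved from 2451 higher and 2684 lower to 4048 and 1883.

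Among the genes that feed and control the pathway, 3 activators of the late branch, PAP1, MYB113 and TT8, rose in both quadruples. PAP1, the MYB activator of anthocyanin synthesis, was at 36.8 and 50.8 in Col-0, 68.7 and 104 in the libraries labelled atx1/2/4/5, 240 and 271 in those labelled atx2/3/4/5 and 109 and 129 in those labelled WDR5A_RNAi. It rose in all 3, most in atx2/3/4/5 (2.53 ± 0.24, limma, adjusted p = 8.74e-07). MYB113, a PAP1 relative, was at 0 in both Col-0 libraries, 13.7 and 20.5 in atx1/2/4/5 and 30.0 and 21.2 in atx2/3/4/5. Set against a floor of 3 reads per library it was at least 5.58-fold and 8.36-fold higher, and since MYB113, MYB114 and PAP2 are neighbouring related genes, reads may be shared among them. The bHLH gene TT8 was at 30.6 and 32.2 in Col-0, 49.9 and 112 in atx1/2/4/5 and 95.5 and 103 in atx2/3/4/5, called in both, and replicate 2 of atx1/2/4/5 was again the higher. TTG1 was at 1047 and 958 in Col-0, 875 and 877 in atx1/2/4/5 and 1070.4 and 962 in atx2/3/4/5 and was called in neither. MYBL2, a repressor of the complex, fell from 2033 and 1922 in Col-0 to 1179 and 902 in atx1/2/4/5 (-0.94 ± 0.20, limma, adjusted p = 0.00715) and 690 and 615 in atx2/3/4/5 (-1.60 ± 0.20, adjusted p = 0.000289). MYB12, the flavonol activator, rose in atx2/3/4/5 (0.67 ± 0.22, limma, adjusted p = 0.0267), and MYB111 was not called in either quadruple.

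**Figure D5:**
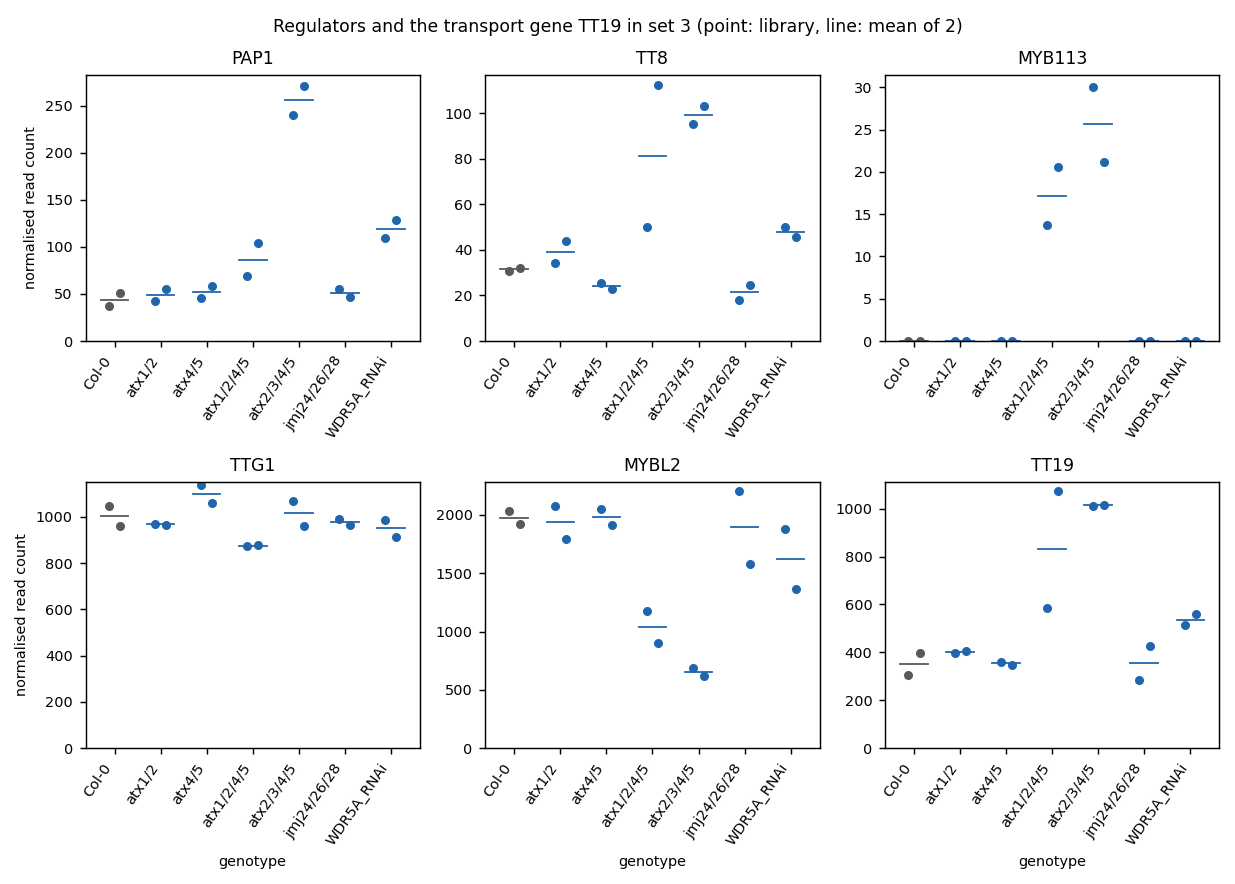
Normalised read count (vertical axis, linear from 0) of 4 activators, the repressor MYBL2 and the transport gene TT19 in the 14 libraries of set 3, each point 1 library and each line the mean of 2. PAP1 reaches 240 and 271 in atx2/3/4/5, MYB113 is above 10 only in the 4 quadruple libraries, and MYBL2 is lowest there.

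The wider pathway lists moved as follows. In atx2/3/4/5, 7 of 12 other flavonoid enzyme and transport genes and 5 of 11 activators were called higher, where 17.8% of all genes were. Of 8 genes of phenylpropanoid entry, 6 were called higher and 2 lower. Of 7 repressors, 4 were called lower, where 20.1% of all genes were. PAL1, a phenylalanine ammonia-lyase at the head of the pathway, rose there by 0.64 ± 0.06 (limma, adjusted p = 1.10e-06). In atx1/2/4/5 the counts were 6 of 12, 3 of 11 and 3 of 8 higher, where 16.2% of all genes were. Lower there were 1 of 8 phenylpropanoid entry genes and 3 of 7 repressors, where 17.1% of all genes were called lower. The flavonol rhamnosyltransferase gene UGT78D1 rose there by 0.72 ± 0.09 (limma, adjusted p = 2.47e-05) and LBD37, a repressor that responds to nitrogen, fell by 0.48 on the log2 scale (adjusted p = 8.74e-05). The median changes in atx2/3/4/5 were 0.60 for the other enzymes and 0.67 for activators, beside 0 over all genes. They were 0.23 for phenylpropanoid entry and -0.33 for repressors. In atx1/2/4/5 the medians of these lists were 0.44, 0.51, 0.16 and 0.19, so that of the repressors was above 0. Of the 5 proanthocyanidin genes of the seed coat, 0 were called by limma in atx2/3/4/5, 0 had an unadjusted p under 0.05, and 1 was called lower in atx1/2/4/5. In WDR5A_RNAi, HY5, a light-response activator, was at 219 and 221 against 307 and 296 (-0.45 ± 0.11, limma, adjusted p = 0.0209), and the bHLH gene GL3 was lower (-0.95 ± 0.25, adjusted p = 0.0252).

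In ino80, MYBL2 fell from 2968 and 2524 to 1828 and 1861 (-0.57 ± 0.08, limma, adjusted p = 0.000968) and TT8 rose from 26.1 and 23.5 to 48.0 and 66.3 (1.16 ± 0.25, adjusted p = 0.0095). PAP1 was at 59.2 and 28.7 in Col-0 and 57.6 and 76.1 in ino80 and was not called (0.67 ± 0.35, limma, adjusted p = 0.223). TTG1 was at 886 and 787 in Col-0 and lower in both ino80 libraries, at 676 and 662. Of 10 activators tested, 1 was called higher and 1 lower, where 10.7% and 11.7% of all genes were. Of 7 repressors, 0 were called higher and 1 lower. PAL2 fell in ino80 (-0.24 ± 0.06, adjusted p = 0.0144), 1 of 3 of the 8 phenylpropanoid entry genes called lower there, beside 11.7% of all genes, and 0 of 11 other flavonoid enzymes were called by limma (2 with an unadjusted p under 0.05). In jmj24 and in atx4/5;jmj24 the acyltransferase gene SAT (0.78 ± 0.12, adjusted p = 0.00574; 0.65 ± 0.12, adjusted p = 0.00792) and the flavonol synthase relative FLS3 (0.54 ± 0.11, adjusted p = 0.024; 0.58 ± 0.11, adjusted p = 0.00836) rose, and both mutants were set against the same Col-0 libraries. LBD38 rose in jmj24 (0.24 ± 0.05, limma, adjusted p = 0.0421). BGLU10, from the list of other flavonoid enzymes, rose in atx4/5;jmj24 (0.22 ± 0.06, limma, adjusted p = 0.0328). PAP1 in set 2 was at 5.44 and 4.04 in Col-0, 3.04 and 2.15 in jmj24 and 16.0 and 14.3 in atx4/5;jmj24. TT8 was at 8.02 and 12.1 in Col-0, 10.2 and 22.2 in jmj24 and 22.1 and 26.4 in atx4/5;jmj24. These values rest on few reads, and both genes were called in neither mutant. Of 10 activators tested in atx4/5;jmj24, 0 were called by limma and 3 had an unadjusted p under 0.05, where 1831 of 23740 genes were called.

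The members' levels were correlated across set 3, with lower values once the quadruples were left out. Over its 14 libraries the Pearson correlation of log2 values ran from 0.808 to 0.944 between pairs of early genes, from 0.858 to 0.971 between pairs of late genes and from 0.67 to 0.976 between an early and a late gene. Over the 10 libraries outside the quadruples it ran from -0.658 to 0.712 for early pairs (median 0.151), from 0.599 to 0.963 for late pairs (median 0.780) and from -0.848 to 0.918 for an early with a late gene (median 0.561). In set 2, over 6 libraries, all pairs of members ran from -0.66 to 0.97 (median 0.55). The libraries share normalisation and differ in depth, so these values are descriptions. The gene most like the mean of the members over the 14 libraries was TT19 (GSTF12), a glutathione transferase that carries anthocyanins to the vacuole, with r = 0.984, and 0.905 over the 10 libraries outside the quadruples. It was at 306 and 397 in Col-0, 586 and 1073 in atx1/2/4/5 and 1010.4 and 1015 in atx2/3/4/5, with the same order of the 2 atx1/2/4/5 libraries as the enzymes. The next were AT1G07210, SHD (AT4G24190), AT3G52580 and AT1G75200, with r from 0.964 to 0.968. In set 2, over 6 libraries, the most alike were WRKY56, AT5G23280, USP, AT5G14550 and TIM17-3, with r from 0.985 to 0.998, and no gene stood in both lists. The lists are the highest of 20478 genes searched in set 3 and 20138 in set 2. Taking the highest of so many genes over few libraries favours a high r, and the size of that effect was not tested.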

How the data were processed

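The authors deposited 3 tables of normalised signal per gene, which look like edgeR pseudo-counts scaled to 1 library size per table. The tools were HISAT2 2.2.0 and edgeR with the build TAIR10, per the submitters' processing notes. The counter, its strand setting and any filter are not given in the sources used here. Total RNA was sequenced as 150-base paired or 50-base single reads, per the labels' protocols, which do not say which library had which. The values are not whole numbers, so reads were not recovered and no count model was run, although the plan allowed for one.

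Values were taken as log2(value + 1). A gene needed a value of 1 or more in at least 2 libraries of its set, which left 22934, 23740 and 24843 genes. The groups of each set shared 1 fit by limma version 3.58.1 under R version 4.3.3 (statmod version 1.5.0), using a mean-variance trend and robust empirical Bayes, and the procedure was tested on simulated data. Every adjusted p is the Benjamini-Hochberg value over all genes of that fit. There were 9 comparisons with Col-0 of the same set and 5 between genotypes. Alternatives were other pseudocounts, filters, scalings and fits, and leaving out each library.

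All 32548 identifiers matched RefSeq TAIR10.1, which keeps the TAIR10 sequence. The members and lists were chosen with earlier results of these data known. All members were named, with the 3 called list genes of smallest adjusted p per comparison with Col-0, a fixed set of regulators, and the 5 genes of mean 10 or more most correlated with the members' mean in sets of 6 or more libraries. Other genes of the lists are given as counts. The targeted genes were added to check the labels after the data were seen.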

Additional observations from a re-analysis of the deposited data

Results flagged for a closer look

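In set 3 the 2 quadruple mutants, compared under the same fit, differed in 2 enzyme genes by the test of the difference itself. The log2 difference of the libraries labelled atx1/2/4/5 less those labelled atx2/3/4/5 was -0.267 for CHI and -0.504 for FLS1, both early genes, and both atx1/2/4/5 libraries lay below both atx2/3/4/5 libraries. No member had 4 or more libraries in a group, so none was searched for a single outlying library.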

How the results depend on the processing

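The fit was rerun with other pseudocounts, filters, scalings, trend and robust options, groups and with each library left out. No change of a member called by limma turned its direction. The counts of members called, beside 7 in ino80, were 0 with no filter and 0 with no trend, and 0 to 9 leaving out 1 library. Beside 1 in jmj24 they were 0, 0 and 0 to 2. Beside 5 in atx4/5;jmj24 they were 0, 0, 2 without the robust option and 1 to 4. In atx1/2 the count was 0, or 1 with the 2 groups fitted alone. In atx1/2/4/5, 7 became 4 to 9 leaving out 1 library. In WDR5A_RNAi, 1 became 0 with a pseudocount of 0.5, no filter, quantile normalisation, equal totals or no trend, 2 with the 2 groups alone, and 0 to 0 leaving out 1 library. For atx4/5;jmj24 against jmj24, 0 became 1 with quantile normalisation. For atx1/2/4/5 against atx1/2, 7 became 3 with no filter, 4 with no trend, 2 with the 2 groups alone and 2 to 8 leaving out 1 library, and against atx4/5, 8 became 5 with the 2 groups alone and 5 to 9. Against atx2/3/4/5, 2 became 1 to 5. Other counts of members stayed within 1.5 times. The causes were not tested.

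The correlations of replicate differences between groups of set 3 were all positive, from 0.0074 to 0.279, and 10 of 21 were over 0.1. Since the others were not, the main fit did not take the numbers to pair the samples, but a pairing was not excluded. Replicate 2 was the higher library for every late gene in Col-0, atx4/5, jmj24/26/28 and atx1/2/4/5. In atx1/2, atx2/3/4/5 and WDR5A_RNAi the order varied by gene. Whether DFR and 5MAT were called in atx1/2/4/5 depended on this choice. With the replicate block, 3 members were called in WDR5A_RNAi and 9 in atx1/2/4/5, where DFR (adjusted p = 0.0101, limma) and 5MAT (adjusted p = 0.013) were added. Both were also called there with equal totals, without the robust option and without replicate 1 of atx1/2/4/5. The block further added LDOX in atx1/2/4/5 against atx1/2, DFR in it against atx4/5 and 5MAT in it against atx2/3/4/5, and ended no member's call. The calls over all genes rose from 70 to 108 in atx1/2, 804 to 1357 in atx4/5, 956 to 1624 in jmj24/26/28 and 2374 to 3565 in WDR5A_RNAi. Apart from leaving out a library, calls over all genes ranged from 243 to 5931 in ino80 (5135 as reported), 76 to 754 in jmj24 (669) and 84 to 1964 in atx4/5;jmj24 (1831), lowest with no filter. They ranged from 33 to 108 in atx1/2, 335 to 1357 in atx4/5, 389 to 1624 in jmj24/26/28, 1183 to 3565 in WDR5A_RNAi, 49 to 233 for atx4/5;jmj24 against jmj24 (177) and 2484 to 4898 between the quadruples (3874). UF3GT and 5MAT were at 26.9 to 96.6 in set 2, and the smallest change that could be called at that depth was not estimated.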
